A study of Mus musculus with 2 samples.

Results

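Glutamate is the main excitatory transmitter of the cortex, and 9 genes of its transport and recycling are described here in 2 long-read RNA libraries. They are Slc17a7, Slc17a6, Slc1a1, Slc1a2, Slc1a3, Glul, Glud1, Slc38a1 and Slc38a3, chosen by name as carriers or enzymes of the glutamate-glutamine cycle, out of 18510 annotated genes with a read. Both libraries came from left cerebral cortex of female B6CASTF1/J mice, F1 hybrids between the strains C57BL/6J and CAST/EiJ, aged 14 days, and 2 µg of RNA went into each. The labels call them biological replicates 1 and 2 of a single group, untreated as far as the labels say. Both sample descriptions hold a shared entry that may stand for 3 pooled females, a further entry of replicate 2 names a single female under another number, and the donor entry is the same for both. Whether n = 2 stands for 2 animals, for pools or for a mixture is thus unclear. No other condition stands beside them, so the only comparison is replicate 1 with replicate 2. Its p-values weigh that difference against counting error alone, and what separates the libraries may be technical.

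In the cycle, neurons load glutamate into synaptic vesicles through the vesicular carriers VGLUT1 (Slc17a7) and VGLUT2 (Slc17a6). Released glutamate is cleared mainly by astrocytes through GLT-1 (Slc1a2) and GLAST (Slc1a3), while EAAC1 (Slc1a1) is the neuronal uptake carrier. Astrocytes turn glutamate into glutamine with glutamine synthetase (Glul), export it largely through SNAT3 (Slc38a3), and neurons take up glutamine through carriers such as SNAT1 (Slc38a1). Glutamate dehydrogenase (Glud1) links glutamate to the citric acid cycle in mitochondria.

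Replicate 1 held 1072344 mouse reads and replicate 2 held 753520. Levels are reads per 1000000 mouse reads (RPM), in which each long read stands for 1 cDNA whatever its length. A read was worth 0.933 RPM in replicate 1 and 1.33 RPM in replicate 2, so that a gene without a read could stand at up to 2.80 RPM in the first and 3.98 RPM in the second. The 9 genes took 2844 reads in replicate 1 and 1950 in replicate 2. Summed, that was 2652 RPM in replicate 1 and 2588 RPM in replicate 2. In tissue RNA, fewer cells of a type and less RNA per cell cannot be told apart. Intervals here are 95% intervals, exact Poisson for levels and Wilson for shares, and cover counting error only.

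Slc17a7 had the highest level of the 9 genes and Slc17a6 the lowest. Of the 9, 1 gene, the neuronal uptake carrier Slc1a1, differed between the libraries, where 0.882% of all 11339 genes tested did. It was higher in replicate 1, as were 0.52% of all genes, and 0 of the 9 were called lower in replicate 1, as were 0.362%. For Slc1a2, most reads lay within the long last exon without crossing an intron, and reads on the opposite strand were about 11 times as many as its own. All internal exons of the carriers and enzymes that could be measured were either kept or skipped in nearly every read.

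The vesicular carriers stood at opposite ends of the range. Slc17a7 (chr7:45163949-45176142, plus strand, 12 exons) had 1334 reads in replicate 1 and 839 in replicate 2. Its level was 1244 RPM (1178 to 1313) in replicate 1 and 1113 RPM (1039 to 1191) in replicate 2, a mean of 1179 ± 92.3 RPM (SD, n = 2). The annotated 12-exon transcript Slc17a7-201 took 1086 reads in replicate 1 and 640 in replicate 2, or 81.4% and 76.3% of the gene's reads. The next model had a single exon, inside the last exon of the gene, with 81 and 62 reads. Reads across the first intron numbered 1115 in replicate 1 and 667 in replicate 2, against 1247 and 772 across the last intron. The first intron was thus crossed by 89.4% as many reads as the last in replicate 1, and by 86.4% as many in replicate 2.

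Slc17a6 (chr7:51622006-51671119, plus strand, 12 exons) had 10 reads in replicate 1 and 8 in replicate 2. Its level was 9.33 RPM (4.47 to 17.1) in replicate 1 and 10.6 RPM (4.58 to 20.9) in replicate 2. The transcript Slc17a6-201, with all coding introns, took 9 and 7 of these reads. Slc17a7 had 133 times as many reads as Slc17a6 in replicate 1 and 105 times as many in replicate 2. The coding sequences of these paralogs were 73.8% identical over 1656 aligned bases, and each read had been given to a single gene by the authors. VGLUT2 is the carrier of thalamic projection neurons, whose 6 listed markers summed to 83.9 RPM in replicate 1 and 91.6 RPM in replicate 2. None of those 6 was at 0 in both libraries, but only 4 of them had enough reads to be tested. The largest share was that of Rora, 49.5 ± 2.48 RPM (SD, n = 2), which cortical neurons also express. The 10 markers of cortical excitatory neurons summed to 3507 RPM in replicate 1 and 3239 RPM in replicate 2. Most of that was Nrgn, at 3072 RPM in replicate 1 and 2868 RPM in replicate 2.

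**Figure D1:**
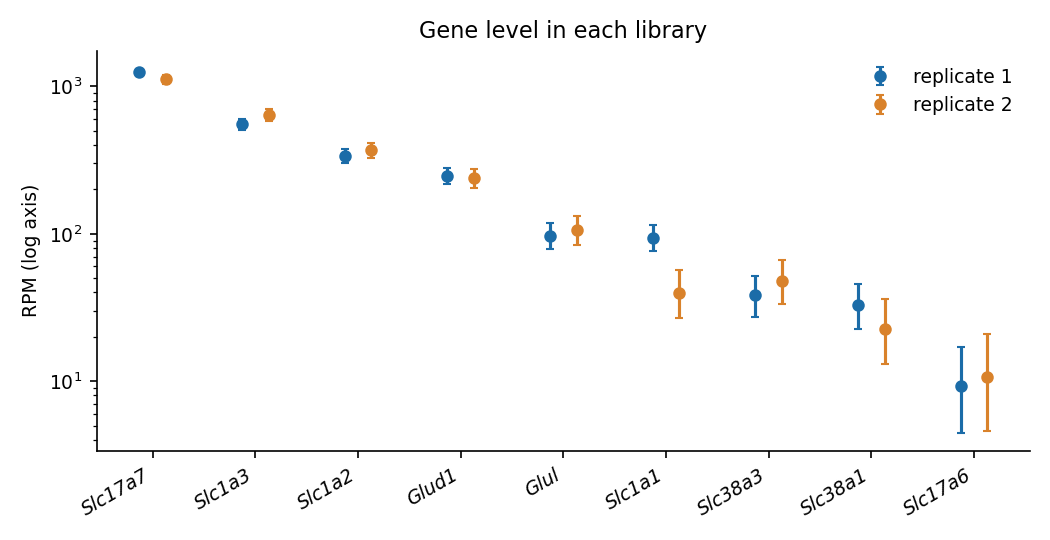
Level of each gene in RPM on a log axis, with replicate 1 in blue left of replicate 2 in orange and exact Poisson 95% intervals as bars. Levels run from Slc17a7 at 1244 and 1113 RPM down to Slc17a6 at 9.33 and 10.6 RPM, and the intervals of the libraries are apart for Slc1a1 alone.

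Among the uptake carriers, Slc1a3 stood above Slc1a2 and Slc1a1 in both libraries. Slc1a3 (chr15:8634124-8710764, minus strand, 10 exons) had 591 reads in replicate 1 and 483 in replicate 2. Its level was 551 RPM (508 to 597) in replicate 1 and 641 RPM (585 to 701) in replicate 2, a mean of 596 ± 63.5 RPM (SD, n = 2). The 10-exon transcript Slc1a3-201 took 500 and 399 of these reads. All coding introns were present in 89.0% of its reads in replicate 1, against 87.4% in replicate 2. The next models were a single-exon model within the last exon, with 25 reads in each library, and an incomplete 9-exon model, with 17 and 21 reads. The neighbouring Slc1a3 and Slc1a2 differed by more than their spread, since the lowest Slc1a3 library, at 551 RPM, lay above the highest Slc1a2 library, at 369 RPM.

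Slc1a2 (chr2:102658659-102790784, plus strand) had 362 reads in replicate 1 and 278 in replicate 2. Its level was 338 RPM (304 to 374) in replicate 1 and 369 RPM (327 to 415) in replicate 2, a mean of 353 ± 22.2 RPM (SD, n = 2). The longest coding transcript, Slc1a2-202, has 11 exons and 11595 bases, of which 9322 are the last exon and 1716 are coding. A single-exon model in that last exon (chr2:102785996-102790784 in replicate 1) took 261 reads in replicate 1 and 183 in replicate 2, or 72.1% and 65.8% of the gene. Altogether, single-exon reads made up 77.1% of Slc1a2 in replicate 1 (279 reads) and 71.2% in replicate 2 (198 reads). Annotated transcripts took 57 reads in replicate 1 and 59 in replicate 2, 15.7% and 21.2% of the gene, against medians of 76.9% and 75.5% over all genes with 20 or more reads in each library. Counted by annotated transcripts alone, still per 1000000 mouse reads, Slc1a2 averaged 65.7 RPM and stood below Slc17a7, Slc1a3, Glud1 and Glul.

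A large single-exon share was shared with other genes that have a long last exon, but few of those reached that of Slc1a2. Over 5947 coding genes with several exons, the median single-exon share was 3.19% in replicate 1 and 3.57% in replicate 2. Over the 242 of these whose last exon spans 5000 bases or more, it was 19.0% and 20.0%. Of those 242, 19 were at or above the Slc1a2 share in both libraries, Slc1a2 included. Slc38a1 has the second longest last exon of the 9 genes, 5395 bases, and the second highest single-exon share, with 18 of its 35 reads, or 51.4%, in replicate 1 and 8 of its 17 reads, or 47.1%, in replicate 2. The other 7 genes have last exons of 1392 to 2307 bases and single-exon shares of 0% to 20.0%, where the upper end is 6 of the 30 reads of Slc1a1 in replicate 2. Fragments of the full transcript and separate short RNAs cannot be told apart in these counts.

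**Figure D2:**
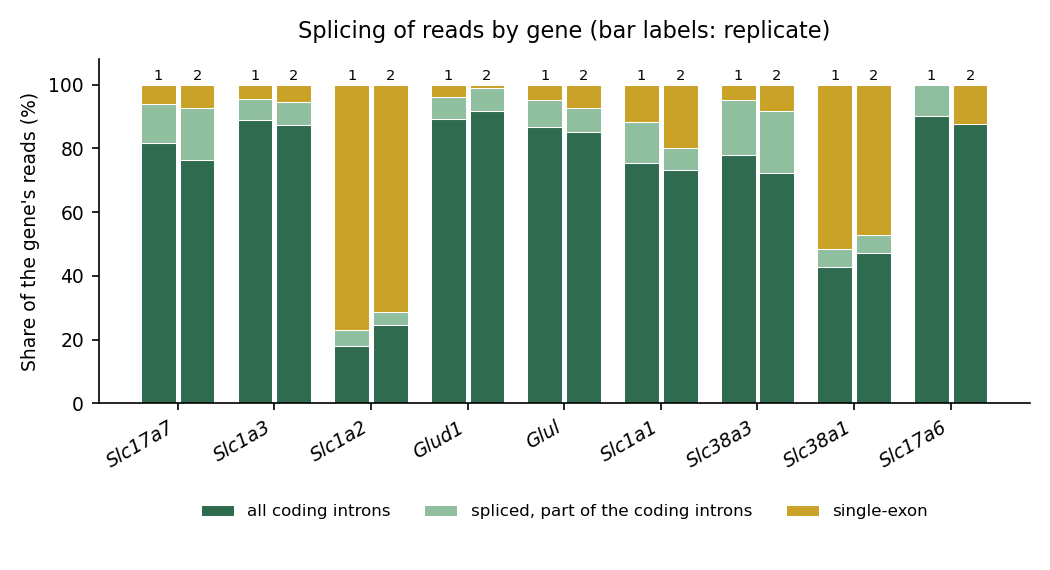
Share of each gene's reads, in percent, that cross all introns within the coding sequence (dark green), are spliced but lack some of these introns (light green) or have a single exon (yellow), with replicate 1 left of replicate 2 for each gene. Single-exon reads are the largest class for Slc1a2, at 77.1% and 71.2%, and for Slc38a1 in replicate 1, at 51.4%, while in replicate 2 they tie with reads that cross all coding introns, at 47.1% each.

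The spliced Slc1a2 reads distinguish the start and the end of the protein. GLT-1 has alternative C termini, of which the annotation holds the form encoded by exon 11 (Slc1a2-202, known as GLT-1a) and the form read from an extended exon 10 (Slc1a2-204, known as GLT-1b), whose tail binds PDZ-domain proteins. The sequences below show both ends, with the last 30 coding bases they share (chr2:102777626-102777655, mm10, plus strand) in lower case and what follows, up to and with the stop codon, in capitals. All Slc1a2 sequences are from the GENCODE M21 transcripts.
Slc1a2-202: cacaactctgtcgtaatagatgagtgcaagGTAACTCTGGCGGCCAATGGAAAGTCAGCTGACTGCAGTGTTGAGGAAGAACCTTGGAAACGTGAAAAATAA
Slc1a2-204: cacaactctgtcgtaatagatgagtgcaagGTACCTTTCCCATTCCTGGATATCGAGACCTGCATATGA
The exon 11 end adds 23 codons before a TAA stop, and the exon 10 end adds 12 codons before a TGA stop.

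Of the 75 reads in replicate 1 and 76 in replicate 2 that crossed from exon 9 into exon 10, most went on to exon 11. That was 55 reads in replicate 1, or 73.3% (62.4% to 82.0%), and 58 reads in replicate 2, or 76.3% (65.6% to 84.5%). The read ended in exon 10 in 20 reads of replicate 1, or 26.7% (18.0% to 37.6%), and 17 reads of replicate 2, or 22.4% (14.5% to 32.9%). The authors assigned 17 of the 20 and 15 of the 17 to Slc1a2-204, and 40 and 44 reads to Slc1a2-202. The shares of the libraries lie within each other's intervals. Reads wholly within the last exon, 278 in replicate 1 and 195 in replicate 2, do not reach exon 10 and are not counted. The shares thus hold for reads that cross from exon 9 into exon 10, and need not be those of the transcripts. The models carry the annotated ends, so the data do not show how far each read runs into the alternative end, and a read that stopped early in exon 10 would be counted with it.

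Alternative first exons also give GLT-1 different N termini. The lines below hold the coding part of the first exon in capitals and the first 30 bases of the shared exon 2 in lower case, for Slc1a2-202 (coding from chr2:102659285-102659301) and Slc1a2-201 (coding from chr2:102706476-102706483), both on the plus strand of mm10.
Slc1a2-202 start: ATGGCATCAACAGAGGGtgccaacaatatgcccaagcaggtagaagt
Slc1a2-201 start: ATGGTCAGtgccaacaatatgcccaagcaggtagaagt
Into exon 2, 75 reads came from any upstream exon in replicate 1 and 74 in replicate 2. The first exon of Slc1a2-202 supplied 72 of the 75 reads, or 96.0%, and 70 of the 74 reads, or 94.6%. The first exon of Slc1a2-201 supplied 0 of 75 and 0 of 74 reads, which allows a share of up to 4.00% in replicate 1 and 4.05% in replicate 2.

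Within the last exon, 7 spliced reads in each library carried a gap of 53 to 57 bases 664 to 668 bases after the stop codon, out of 57 and 59 reads that crossed into exon 11. It is outside the annotation and was given as 4 variants of slightly different ends, of which the most frequent (chr2:102782198-102782254, mm10, plus strand) held 3 reads in replicate 1 and 4 in replicate 2. Its edges are shown because they fall in simple repeats, with the gap's own first and last bases in capitals.
Left edge: gtgtgtgtgtGTGTGTGTGT
Right edge: AGAGAGAGAGagatgtgtgt
The gap begins with GT and ends with AG, the letters of most introns, but the repeats offer these letters at many positions.

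Slc1a1 (chr19:28835049-28913960, plus strand, 12 exons) had 101 reads in replicate 1 and 30 in replicate 2. Its level was 94.2 RPM (76.7 to 114) in replicate 1 and 39.8 RPM (26.9 to 56.8) in replicate 2. The library intervals do not overlap. The log2 ratio, replicate 1 over replicate 2, was 1.23 (SE 0.298, 95% interval 0.64 to 1.81), with an adjusted p of 0.00278 by the exact binomial test with Benjamini-Hochberg adjustment over all genes. The difference was seen across all introns of the transcript, mostly through the same reads, which cross every one of them. Reads across its first intron numbered 79 in replicate 1 and 22 in replicate 2, and across its last intron 87 and 24. Single-exon reads, which cross no intron, numbered 12 in replicate 1 and 6 in replicate 2. Slc1a1-201, with all coding introns, took 75.2% of the reads in replicate 1 (76 reads), against 73.3% in replicate 2 (22 reads), so the make-up of the reads was similar while their number differed. The mean of 67.0 ± 38.4 RPM (SD, n = 2) has the largest relative spread of the 9 genes.

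**Figure D3:**
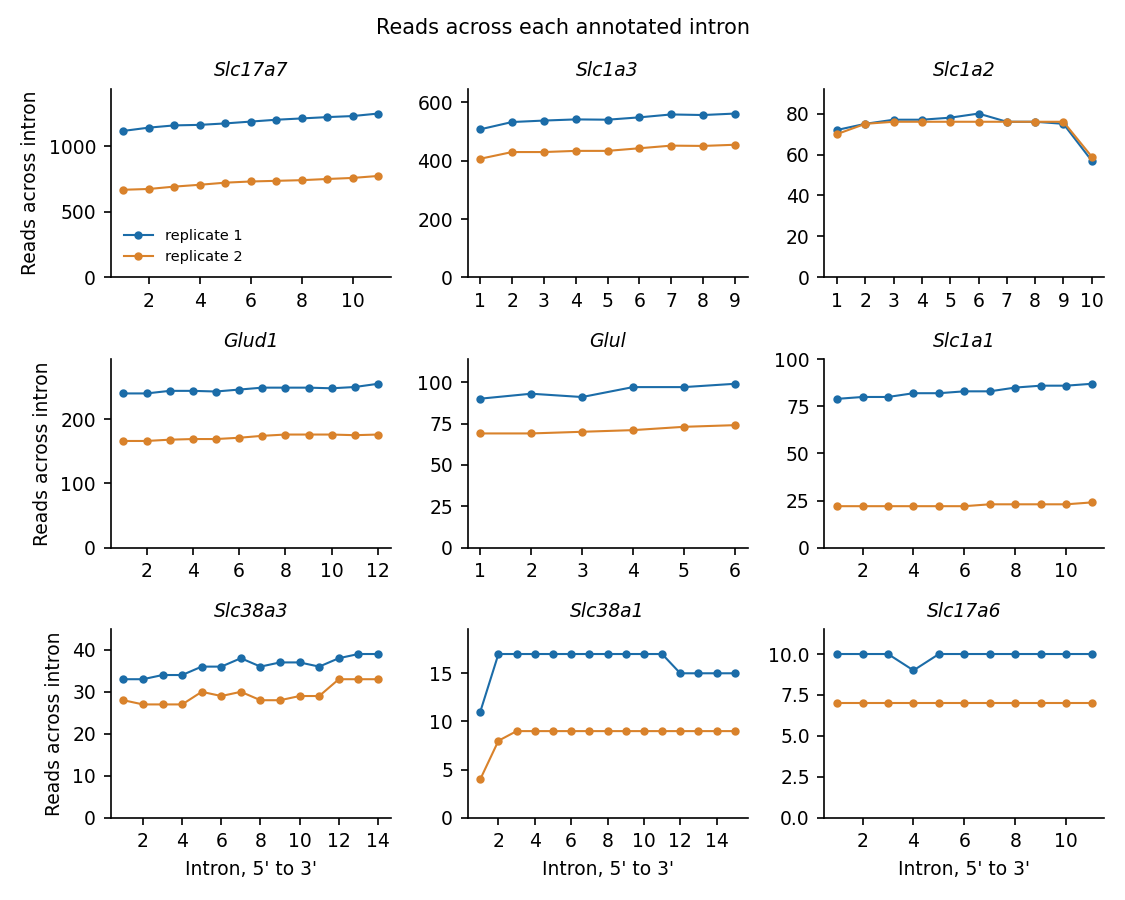
Reads across each annotated intron of the longest coding transcript, from the 5' to the 3' end, for each gene, with replicate 1 in blue and replicate 2 in orange and a linear axis from 0. Counts change little along most genes, Slc1a1 stays between 79 and 87 reads in replicate 1 and between 22 and 24 in replicate 2, and Slc1a2 steps down at the last intron, where 57 and 59 reads remain.

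Glul (chr1:153899944-153909723, plus strand, 7 exons) had 104 reads in replicate 1 and 80 in replicate 2. Its level was 97.0 RPM (79.2 to 118) in replicate 1 and 106 RPM (84.2 to 132) in replicate 2, a mean of 102 ± 6.49 RPM (SD, n = 2). Glul-201 took 86 and 68 of these reads, or 82.7% and 85.0%. Glud1 (chr14:34310727-34345265, plus strand, 13 exons) had 266 reads in replicate 1 and 179 in replicate 2. Its level was 248 RPM (219 to 280) in replicate 1 and 238 RPM (204 to 275) in replicate 2, a mean of 243 ± 7.43 RPM (SD, n = 2). Glud1-201 took 237 and 164 of these reads. With 89.1% and 91.6% of its reads on that single transcript, Glud1 had the highest such share of the 7 genes with 20 or more reads in each library.

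The glutamine carriers were low. Slc38a3 (chr9:107650634-107669530, minus strand) had 41 reads in replicate 1 and 36 in replicate 2. Its level was 38.2 RPM (27.4 to 51.9) in replicate 1 and 47.8 RPM (33.5 to 66.1) in replicate 2, a mean of 43.0 ± 6.75 RPM (SD, n = 2). The 16-exon coding transcript Slc38a3-209 took 30 and 23 of these reads, and its first exon supplied 31 and 24 reads. Slc38a1 (chr15:96571418-96642913, minus strand, 16 exons in Slc38a1-201) had 35 reads in replicate 1 and 17 in replicate 2. Its level was 32.6 RPM (22.7 to 45.4) in replicate 1 and 22.6 RPM (13.1 to 36.1) in replicate 2, a mean of 27.6 ± 7.13 RPM (SD, n = 2). Its single-exon model of the last exon took 18 and 8 reads, and Slc38a1-201 took 11 and 3. Of the Slc38a1 reads joined to an annotated first exon, 11 in replicate 1 and 4 in replicate 2 used that of Slc38a1-201, and 2 other annotated first exons supplied 5 and 4 reads together.

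The order of the levels was Slc17a7, Slc1a3, Slc1a2, Glud1, Glul, Slc1a1, Slc38a3, Slc38a1 and Slc17a6 in replicate 1. Replicate 2 gave the same order except that Slc38a3, at 47.8 RPM, stood above Slc1a1, at 39.8 RPM. Slc1a1 and Slc38a3 thus do not differ beyond their spread. Glul and Slc1a1 had overlapping counting intervals in replicate 1, as did Slc38a3 and Slc38a1 in both libraries. In replicate 2, the interval of Slc38a1 (13.1 to 36.1 RPM) also overlapped those of Slc17a6 (4.58 to 20.9 RPM) and Slc1a1 (26.9 to 56.8 RPM). As an alternative scale, the levels were also divided by the read-weighted mean length of each gene's models. Each read stands for 1 cDNA whatever its length, so this division does not correct the levels for length. Per kilobase, Glud1 at 75.1 RPM per kb moved above Slc1a2 at 66.9 RPM per kb, and the other 7 kept their places, from Slc17a7 at 429 to Slc17a6 at 2.51 RPM per kb.

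Across the 9 genes, 4 had a log2 ratio above 0 and the median was -0.13, against a median of 0.0035 over all genes tested. With ERCC spike-in reads as the scale, every log2 ratio fell by 0.25, so that those of Slc17a7 and Glud1 turned negative, and Slc1a3 and Slc1a2 were then called lower in replicate 1. Slc17a7 and Slc1a3 had unadjusted p of 0.0122 and 0.0143 by the exact binomial test, and did not pass after Benjamini-Hochberg adjustment over all genes (adjusted p = 0.337 and 0.360). Their log2 ratios were 0.16 (SE 0.064) for Slc17a7 and -0.22 (SE 0.088) for Slc1a3. With Slc1a1, 3 of the 9 had an unadjusted p under 0.05, where 8.6% of all genes did. The remaining 6 ran from -0.32 for Slc38a3 to 0.51 for Slc38a1, with adjusted p of 0.890 to 1. For Slc17a6, with 10 and 8 reads, the 95% interval reached from a log2 ratio of -1.51 to 1.10, so a smaller difference could not be detected at this depth.

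**Figure D4:**
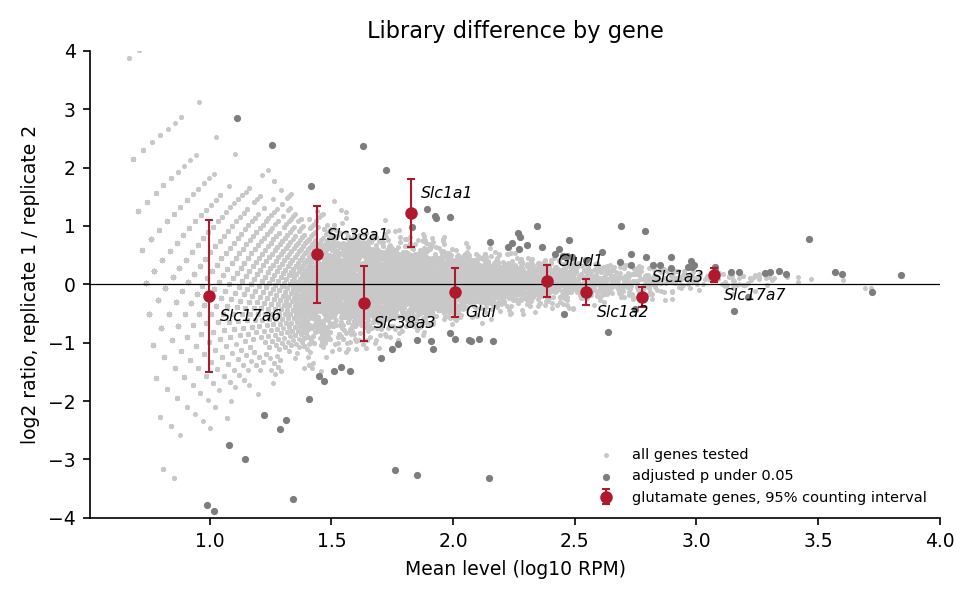
Log2 ratio of replicate 1 over replicate 2 against the mean level in log10 RPM, for all genes tested (light grey), those with an adjusted p under 0.05 (dark grey) and the 9 glutamate genes (red, with 95% counting intervals). Slc1a1 lies at 1.23, above the cloud at its level, while the other 8 lie within it, and 16 genes beyond a log2 ratio of 4 in either direction are not drawn.

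Cell type markers were summed to show what else moved between the libraries. The 10 markers of myelinating oligodendrocytes summed to 6205 RPM in replicate 1 and 3656 RPM in replicate 2, and 6 of the 10 were called, all higher in replicate 1, where 0.52% of all genes were. They included Mbp, at 3673 RPM in replicate 1 and 2142 RPM in replicate 2, and none of the 10 was at 0. For Slc1a1, which was higher in the same library, the part of oligodendrocyte RNA in the result was not tested. The choroid plexus list summed to 369 RPM in replicate 1 and 583 RPM in replicate 2. Of its genes, Ttr was called lower in replicate 1, at 25.2 RPM against 256 RPM in replicate 2. Kl was at 0 in both. The largest part of both sums was Enpp2, at 342 RPM in replicate 1 and 317 RPM in replicate 2, which was not called. The 14 astrocyte markers summed to 8734 RPM in replicate 1 and 9022 RPM in replicate 2. Most of that was Apoe, at 5121 RPM in replicate 1 and 5343 RPM in replicate 2. The 8 inhibitory neuron markers summed to 499 and 438 RPM, of which Gad1 was the largest part, at 273 and 220 RPM. The endothelial markers summed to 640 RPM in replicate 1 and 648 RPM in replicate 2, and the microglial markers to 604 and 622 RPM. No gene of the astrocyte, excitatory, inhibitory, thalamic, endothelial or microglial lists was called.

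No difference in isoform use between the libraries passed the test. The share of reads on the leading model was called for 0 of the 7 genes with 20 or more reads in each library, where 1.26% of 6189 genes were called (Fisher's exact test, Benjamini-Hochberg adjustment). The share on annotated transcripts was called for 0 of 7, where 0.0808% of genes were. For Slc17a7, the gene with most reads, the leading share of 81.4% in replicate 1 and 76.3% in replicate 2 had an adjusted p of 0.250 by that exact test.

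Internal exons were counted among the spliced reads that span them and hold either the whole exon or none of it. Reads with only part of an exon, from a shifted splice site, were left out. The 9 genes have 92 annotated internal exons, of which 68 were spanned by 20 or more reads in each library, in 7 genes. Of these 68, 61 were present in 100% of spanning reads in both libraries, and 0 had a mean inclusion between 5% and 95%. The exon with the lowest inclusion was a 75-base exon of Slc17a7-202 (chr7:45169511-45169585), whose bases were present in 6 of 1149 reads in replicate 1, or 0.522%, and 8 of 689 in replicate 2, or 1.16%. Its own splice junctions were used by 2 reads in replicate 1 and 1 in replicate 2, so the other reads held its bases inside a longer exon. Transcripts of GLAST that lack exon 3 or exon 9 have been described. Exon 3 of Slc1a3 was present in 535 of 535 spanning reads in replicate 1 and 428 of 428 in replicate 2. Exon 9 was present in 559 of 559 and 454 of 454. The Wilson lower bound of these 4 shares was at least 99.1%. A single read in each library skipped exons 7 and 8 of Slc1a3.

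Junctions outside the annotation were rare in the 9 genes. Slc17a7 had 27 such junctions, which carried 37 reads in replicate 1 and 26 in replicate 2, and 10 of the 27 were seen in both libraries. The most frequent, at chr7:45170747-45170850, held 5 and 2 reads. Slc1a3 had 18 such junctions with 19 reads in replicate 1 and 8 in replicate 2. The other genes had 1 to 13 each, and no junction of this kind in any of the 9 had more than 7 reads in both libraries together.

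Reads on the opposite strand were kept apart from these counts. Slc1a2 had 3951 antisense reads in replicate 1 and 3072 in replicate 2, a level of 3684 RPM in replicate 1 and 4077 RPM in replicate 2. That was 10.9 antisense reads for each of its own in replicate 1 and 11.1 in replicate 2. By reads of antisense models that carry no annotated gene name, Slc1a2 was first of 6084 coding genes with 20 or more reads in each library. Such reads outnumbered the gene's own in both libraries for 48 of the 6084, or 0.789%, and the median was 0.0103 per own read in replicate 1 and 0.0156 in replicate 2.

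Nearly all of these reads belonged to 3 blocks of single-exon models at the 3' end of Slc1a2. The largest block (chr2:102784135-102786748, minus strand) lies within the last exon and held 3081 reads in replicate 1 and 2385 in replicate 2, 78.0% and 77.6% of the antisense reads. The 5' end of its model lay 4036 bases inside the annotated end of Slc1a2 in replicate 1 and 4037 bases in replicate 2. The 3' ends of the models lay 6649 and 6453 bases inside. The 3' end in replicate 1 was also the end of a spliced model on the gene's own strand. Only ends of models are known here, not ends of reads, so the near match of the 5' ends does not fix where a transcript starts. The second block (chr2:102778106-102781557) lies mainly in the last intron, after the extended exon 10, and held 582 and 436 reads. The third (chr2:102786910-102789422) lies nearer the gene's end and held 257 and 230 reads. A further block at the promoter (chr2:102658659-102659223), over the first exon of Slc1a2-202, held 16 and 9 reads. Only the model of replicate 1 has that span, and the model of replicate 2 is 1 base long. A block in an intron (chr2:102756524-102757977) passed 5 reads in replicate 2 alone, with 6. The log2 ratio, replicate 1 over replicate 2, of the largest block was -0.14 (95% counting interval -0.22 to -0.063), close to the -0.13 of the Slc1a2 reads themselves. Single-exon reads show no splice site that would give their strand, so the strand rests on the authors' orientation of the reads, which was not tested here. On the gene's own strand, the single-exon model with most reads ends at the annotated 3' end of Slc1a2.

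**Figure D5:**
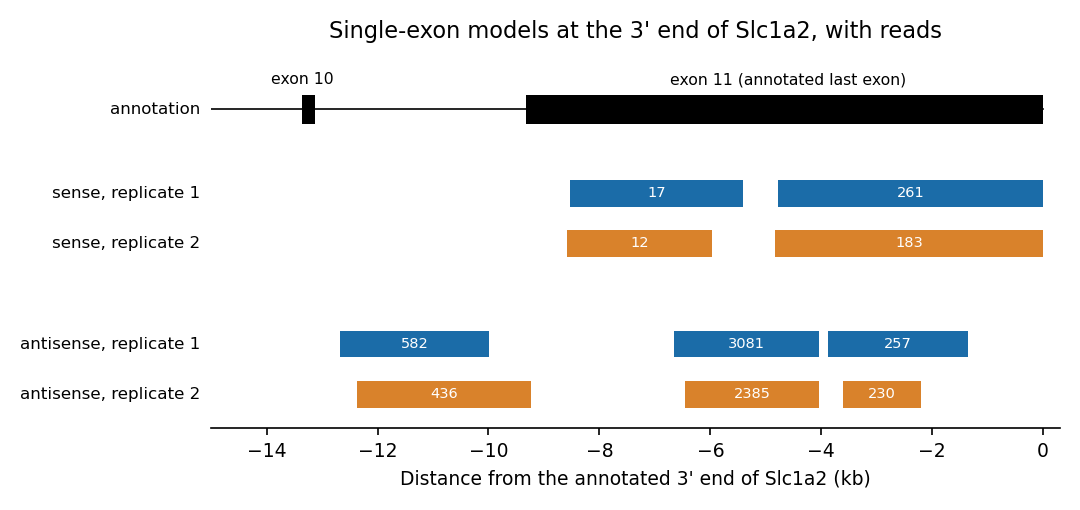
Single-exon models with 5 or more reads over the last 15 kb of Slc1a2, by distance in kb from its annotated 3' end, with annotated exons in black, sense models above and antisense models below, replicate 1 in blue over replicate 2 in orange, and the read count in each bar. The antisense models with 3081 and 2385 reads begin 4036 and 4037 bases inside the gene's end, and the sense model with 261 and 183 reads runs to that end.

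The other genes had few antisense reads, though some also had few reads of their own. Counting annotated antisense genes too, Slc1a1 had 0.188 antisense reads per own read in replicate 1 and 0.70 in replicate 2. The ratios were 0.122 and 0.306 for Slc38a3 and 0.30 and 0.25 for Slc17a6. Those of the remaining genes ran from 0.0015 to 0.118. Slc1a3 had 26 in replicate 1 and 19 in replicate 2, of which a block in an intron (chr15:8681549-8683615, plus strand) held 13 and 8. A model at the 3' end of Slc1a3, 1 base long, passed 5 reads in replicate 1 alone, with 9. Slc1a1 had 19 and 21, mostly of the annotated gene 4430402I18Rik on the minus strand. A block of that gene (chr19:28893042-28895793) held 17 and 14 reads, or 15.9 RPM in replicate 1 and 18.6 RPM in replicate 2. Slc38a3 had 5 antisense reads in replicate 1 and 11 in replicate 2, all in a single block in an intron (chr9:107661938-107664827, plus strand). The remaining 5 genes had 1 to 6 antisense reads in each library. On their own strand, none of the 9 genes shared exon sequence with reads given to another gene.

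The wider pathway was described by 3 gene lists, of which the enzyme list also holds Glul and Glud1. No gene of any list was called in the library difference, where 0.882% of all genes were. Of 15 enzymes of glutamate and glutamine metabolism, all were tested, 6 had a log2 ratio above 0, the median was -0.07, and 1 had an unadjusted p under 0.05 by the exact binomial test. The most abundant were Got1, the cytosolic aspartate aminotransferase, at 385 ± 25.9 RPM, Glud1, and Asns, the asparagine synthetase, at 150 ± 14.9 RPM (SD, n = 2). Of 19 other amino acid carriers, 13 had enough reads to be tested, 4 of these had a log2 ratio above 0, the median was -0.06, and 1 had an unadjusted p under 0.05 by the same exact test. The most abundant were Slc25a22, a mitochondrial glutamate carrier, at 320 ± 6.09 RPM, Slc3a2, the heavy chain of several amino acid exchangers, at 248 ± 1.52 RPM, and Slc25a12, a mitochondrial aspartate-glutamate carrier, at 149 ± 2.79 RPM (SD, n = 2). Slc1a7, an uptake carrier known from the retina, was at 0 in both libraries. Of 8 binding partners and regulators of the carriers, 7 were tested, 5 had a log2 ratio above 0, the median was 0.05 and 0 had an unadjusted p under 0.05 by the exact binomial test. Among them, Atp1b2 stood at 295 ± 17.9 RPM and Rtn2 at 200 ± 10.3 RPM (SD, n = 2).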

How the data were processed

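The deposited files hold, per library, raw counts of long reads per transcript model and the models' exons on mm10; per the file headers the annotation was GENCODE M21, and the models' source field names TALON. Depth was 1072344 mouse reads in replicate 1 and 753520 in replicate 2. The sources used here do not name the aligner. A gene's counts are the sum over its models; models were matched between libraries by intron positions, and models on the opposite strand were set apart by position. RPM divide by all mouse reads. Log2 ratios are replicate 1 over replicate 2 with 0.5 reads added. For genes with 10 or more reads the libraries' counts were set against their totals in an exact binomial test, two-sided, and shares in genes with 20 or more reads in each library by Fisher's exact test, both with Benjamini-Hochberg adjustment over all genes and a threshold of 0.05 (Python 3.11.15, scipy 1.17.1). TMM factors came from edgeR 4.0.16. Both tests were tested on simulated data that held counting error alone, with changes placed in genes with many reads. That does not show how they act when libraries differ by more than counting error. Alternatives changed the scaling, the models counted, the read minimum and the pseudocount.

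The genes and lists were chosen with earlier results of these data known. Named are all 9 genes, up to 3 models of each with 10 or more reads, and antisense blocks of models with 5 or more reads. Also named are the 3 most abundant, called or absent genes of each pathway list, and of marker lists the sums and genes at 0. Junctions, Mbp, Ttr, Rora, Enpp2, Nrgn, Apoe and Gad1 were named after their values were seen. A gene that this rule would name is not reported here. Genes with a like pattern are not named, since 2 libraries of 1 group give no pattern. Each read was given by the authors to a single gene, so reads of paralogs and overlapping genes are uncertain.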

Additional observations from a re-analysis of the deposited data

How the results depend on the processing

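Slc1a1 stayed higher in replicate 1 under every alternative run, with log2 ratios of 0.98 to 1.36 and adjusted p of 0.00129 to 0.0404 by the exact binomial test. Scaling by ERCC spike-in reads lowered every log2 ratio by 0.25 and gave 323 calls over all genes, against 100. On that scale the log2 ratios of Slc17a7 and Glud1 were -0.085 and -0.18, reversed in sign, and Slc1a3 and Slc1a2 were called lower in replicate 1 at -0.46 and -0.37 (adjusted p = 5.93e-05 and 0.0494, exact binomial test). Relative to the all-gene median on that scale, -0.24, the directions of these 4 were as reported. Annotated transcripts alone, with their own sum as the library total, gave 35 calls and a Glud1 ratio of -0.051, also reversed. With all mouse reads as the total, an alternative added after the data were seen, they gave 46 calls and a Glud1 ratio of 0.02, in the reported direction. Leaving out models of the class Genomic gave 176 calls on its own total and 175 on all mouse reads. Calls over all genes in the leading-model share fell to 12 without incomplete splice matches and Genomic models, and to 34 at 50 or more reads, against 78. Calls in the annotated share rose to 80 without Genomic models, against 5. The summed level of the 9 genes was 2620 RPM, and 2588 to 2652 RPM with a library left out. Per 1000000 mouse reads it was 1918 RPM over annotated transcripts and 2297 RPM without Genomic models, since fewer reads were counted. Per 1000000 reads of the models counted it was 2930 and 2437, on a smaller total. The cause of the shifts in calls was not tested. No paired analysis was possible because the series holds a single group. Slc17a6 and Slc38a1, with 8 to 35 reads a library, were too shallow for tests of isoform use.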
